A study of Mus musculus with 24 samples.

Results

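Livers of mice without Jnk1 whose common bile duct had been ligated for 28 d were compared with livers of sham-operated control mice at the same time. The members were the 3 arrays titled as the JNK1 knockout ligated for 28 d and the 3 titled as the control sham at 28 d, 6 of the 24 arrays in the study. The ligated group was JNK1-/-, null in the whole body and bought from a vendor. The sham group was JNK1f/f, which carries the floxed allele without Cre and came from a separately donated line. All 6 arrays came from male C57/BL6 liver at a labelled age of 12 weeks, with surgery at 7 to 8 weeks of age. Sham surgery opened and closed the abdomen. The groups differed in both surgery and genotype, and no JNK1-/- sham group was analysed here, so the parts of a difference due to ligation and to genotype cannot be told apart from these 6 arrays alone. 3 other groups were therefore set beside them: JNK1f/f livers ligated for 28 d, and JNK1-/- and JNK1f/f livers ligated for 48 h (labelled age 8 weeks), with 3 arrays in each. Livers titled as the control sham at 48 h (labelled age 8 weeks, 3 arrays) served as another sham reference. The protocol gives 9 to 10 mice a group, and no label says which mice, or how many, an array holds, so p-values measure the spread between these samples.

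Ligation of the bile duct holds bile back in the liver. Retained bile acids act on hepatocytes, which normally take bile acids up from blood, make them from cholesterol and export them into bile, and prolonged obstruction is known for bile duct proliferation, macrophage accumulation and scarring around the portal tracts. JNK1, encoded by Mapk8, is a kinase switched on by stress, and its substrates include Jun and related AP-1 transcription factors.

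The values were log2 intensities of whole-transcript arrays, 1 probe set for each of 18820 gene symbols. Correlations between arrays ran from 0.9911 to 0.9955 within the JNK1-/- ligated group, from 0.9940 to 0.9954 within the sham group and from 0.9772 to 0.9817 between them. The targeted gene followed the labels on the 6 arrays compared. Mapk8 read 6.11, 5.18 and 5.61 in the 3 JNK1-/- ligated arrays and 7.52, 7.52 and 7.54 in the sham arrays. All knockout arrays lay below all sham arrays, with a log2 difference of -1.89 ± 0.22 (SE, n = 3 and 3, limma, adjusted p = 7.8e-06). Where its probes lie relative to the deletion is not given in the sources used here. The paralogs Mapk9 and Mapk10 differed by 0.05 (adjusted p = 0.75) and -0.15 (adjusted p = 0.27). Albumin (Alb), the main secreted protein of hepatocytes, lay between 13.28 and 13.44 on all 6 arrays. In the control sham arrays of 48 h, used below as another reference, Mapk8 read 6.93, 6.67 and 6.86. Those values were below every other control array. Arrays titled JNK1dhepa and ligated for 48 h read 6.77, 6.81 and 6.76. Nnt, 1 of the fixed defining genes, read 9.68, 8.81 and 8.94 in the 48 h sham arrays. It read 9.84, 10.19 and 10.25 in the 28 d sham arrays. Control arrays ligated for 48 h read 9.65, 10.14 and 10.03 for Nnt, and the JNK1dhepa arrays ligated for 48 h 9.05, 8.84 and 8.97. The JNK1-/- ligated arrays were higher in Nnt by 0.25 than the 28 d sham arrays and by 1.20 than those of 48 h. The reason for these sham values was not tested.

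The JNK1-/- ligated liver differed from the sham liver in 2416 of 18820 genes (12.8% of those tested, limma, adjusted p under 0.05). Of these, 1354 rose (7.19%) and 1062 fell (5.64%), and 624 differed at least 2-fold, 418 upward and 206 downward. The counts of each gene list below are to be read beside these shares, and nothing is read from a count near them. The 3 arrays of a group lay wholly above or below those of the other in 6547 genes (34.8% of those tested), among them 2376 of the called genes. The call count fell to 1612 to 1977 when any 1 of the 6 arrays was left out, and to 1359 without replicate 3 of both groups. When each array was centred on its own median, the median difference of all genes moved from -0.03 to -0.21, 4537 genes were called, and the share of calls that were higher moved from 56% to 18.9%. Small differences are therefore read against that shift.

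The 14 largest rises and 14 largest falls were picked among called genes with separate groups, so their lack of overlap is set by the choice. The largest rise among all genes was in Slc6a16, a member of the solute carrier family of neurotransmitter and amino acid transporters. Slc6a16 read 10.32, 10.93 and 10.66 in the JNK1-/- ligated arrays and 4.77, 4.17 and 4.31 in the sham arrays, 74.6-fold higher (log2 difference 6.22 ± 0.19, adjusted p = 1.9e-14). Among ligated livers the JNK1-/- minus control difference in Slc6a16 was 6.78 at 28 d and 6.70 at 48 h. Loss of Jnk1 and the separate origin of the 2 lines cannot be told apart in these differences. Next came Sult1e1, the estrogen sulfotransferase, at 10.57, 10.68 and 8.19 against 4.11, 4.23 and 4.09. The third knockout array was lower than the other two, yet all 3 lay above the sham arrays, and the difference was 51.0-fold (adjusted p = 1.2e-05). Slc22a26, of the organic anion transporter family, was the third (log2 difference 4.95). Lcn2, the fifth, which encodes the iron-siderophore binding protein lipocalin 2, read 12.999, 13.04 and 13.23 against 9.39, 10.09 and 8.13, a difference of 3.89 ± 0.42. Its sham arrays spread over more than a log2 unit and its ligated arrays hardly at all. Against the sham arrays of 48 h, from younger mice, the same ligated arrays were higher by 1.497 (adjusted p = 0.019), so the size for Lcn2 depends on which sham group is used. The other rises among the 14 largest were Cd14 (3.92), the endotoxin co-receptor; Slc22a27 (3.86), related to Slc22a26; Cib3 (3.80); Slc51b (3.63), a subunit of the basolateral bile acid exporter; Pls1 (3.62), an actin-bundling protein; Atp6v0d2 (3.61), a proton pump subunit; Orm3 (3.60), an acute phase protein; Slc13a5 (3.57), the citrate transporter; Bmper (3.50), a secreted BMP-binding protein; and Sprr1a (3.37), a small proline-rich protein.

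The largest fall was in Hsd3b5, a steroid-metabolising enzyme of male mouse liver. Hsd3b5 read 3.78, 3.43 and 3.50 in the JNK1-/- ligated arrays and 11.99, 12.04 and 12.05 in the sham arrays, 351-fold lower (log2 difference -8.46 ± 0.86, adjusted p = 2.0e-06). The groups were far apart and neither spread by more than 0.4. Serpina4-ps1, annotated as a pseudogene, fell by 7.15 on the log2 scale and Sult2a8, a sulfotransferase, by 6.72. Slco1a1, a sinusoidal organic anion uptake carrier, read 4.86, 5.42 and 3.83 against 11.48, 11.39 and 11.25, and Elovl3, a fatty acid elongase, read 6.00, 4.995 and 5.70 against 12.19, 11.95 and 12.41. These falls were of 6.67 and 6.62. The 3 major urinary protein genes Mup21 (-4.83), Mup6 (-4.31) and Mup3 (-3.99) also fell, although members of this family are near-identical and their probes may share signal. Cyp4a12a (-3.99), Sult5a1 (-3.69), Cyp7b1 (-3.65), Keg1 (-3.49), Sdr9c7 (-3.37) and Car3 (-3.32), which encodes carbonic anhydrase 3, completed the 14 largest falls.

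**Figure D1:**
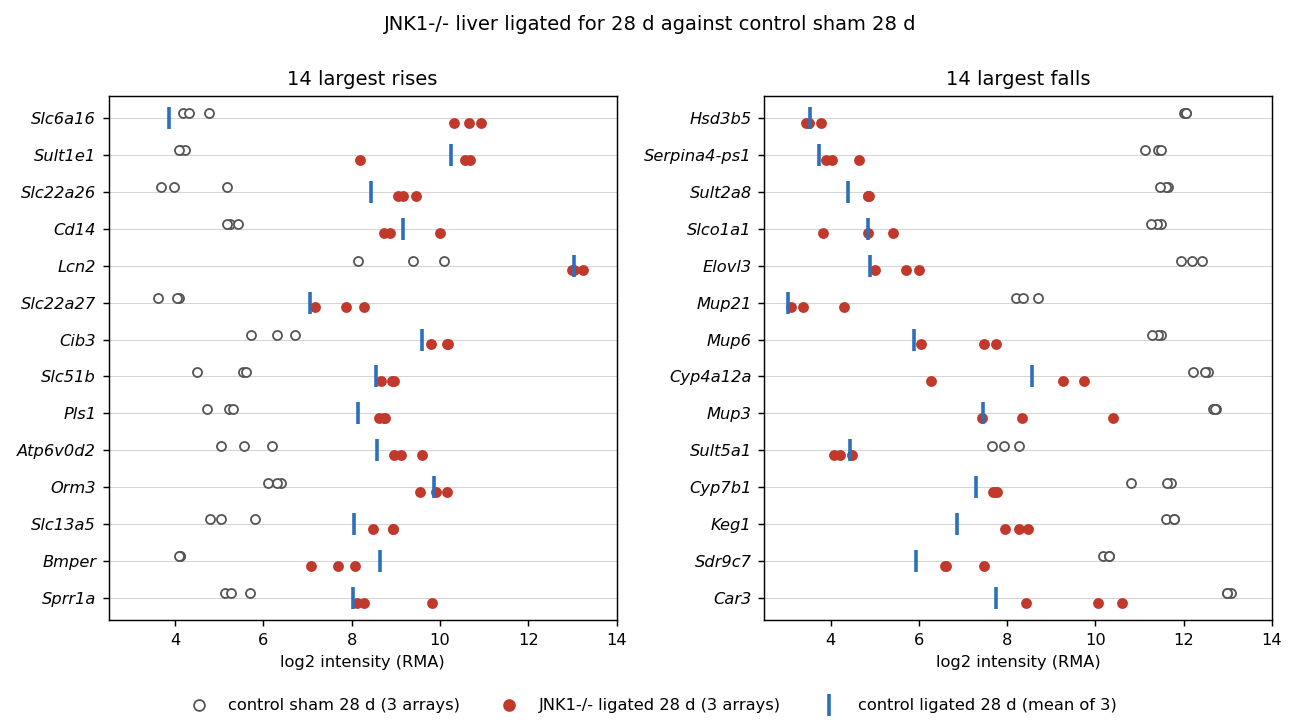
Log2 intensity (horizontal axis) of the 14 genes with the largest rise (left) and the 14 with the largest fall (right); open circles are the 3 control sham arrays, red circles the 3 JNK1-/- ligated arrays at 28 d, and the blue bar is the mean of the 3 control ligated arrays. The genes were picked among those with separate groups, so the separation shown is set by that choice. The blue bar lies on the side of the red circles except for Slc6a16, where it lies with the sham arrays.

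Of these 28 genes, Slc6a16 alone also differed between JNK1-/- and control livers that were both ligated for 28 d. For Hsd3b5 that difference was 0.05 with a 95% interval of -1.75 to 1.85, for Sult1e1 -0.44 (-1.85 to 0.98) and for Lcn2 0.07 (-0.81 to 0.95). The intervals are wide enough to hold differences of over 1.5-fold, so the calls missed here do not show equal levels.

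Promoter sequence was examined for these genes because many of them moved together and AP-1 is the family that JNK1 acts on. RefSeq windows (build GRCm38.p6) from 250 bases before to 50 bases after the start were found for 12 of the 14 genes with the largest rises and 9 of the 14 with the largest falls. The AP-1 motif TGANTCA, searched on both strands, was in the windows of 3 of the 12 risen genes and 1 of the 9 fallen genes, and in 8.97% of the 27025 genes with a window (any of a gene's windows counted). The STAT5 motif TTCNNNGAA was in 2 of the 12 and 2 of the 9, and in 9.55% of the genes. Windows holding a match are shown for 3 risen genes (Sprr1a, chr3:92485832-92486131 on the minus strand; Slc51b, chr9:65422724-65423023 on the minus strand; Orm3, chr4:63355908-63356207 on the plus strand) and 2 fallen genes (Keg1, chr19:12695540-12695839 on the plus strand; Sdr9c7, chr10:127898285-127898584 on the plus strand). Capitals mark the matches, which are TGANTCA in Sprr1a and Orm3, TTCNNNGAA in Keg1 and Sdr9c7, and one of each in Slc51b.
Sprr1a: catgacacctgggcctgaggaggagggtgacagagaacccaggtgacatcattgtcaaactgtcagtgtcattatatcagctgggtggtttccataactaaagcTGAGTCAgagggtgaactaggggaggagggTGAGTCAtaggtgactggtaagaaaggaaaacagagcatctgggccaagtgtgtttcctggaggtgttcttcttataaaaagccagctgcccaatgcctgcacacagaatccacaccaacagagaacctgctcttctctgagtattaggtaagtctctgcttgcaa
Slc51b: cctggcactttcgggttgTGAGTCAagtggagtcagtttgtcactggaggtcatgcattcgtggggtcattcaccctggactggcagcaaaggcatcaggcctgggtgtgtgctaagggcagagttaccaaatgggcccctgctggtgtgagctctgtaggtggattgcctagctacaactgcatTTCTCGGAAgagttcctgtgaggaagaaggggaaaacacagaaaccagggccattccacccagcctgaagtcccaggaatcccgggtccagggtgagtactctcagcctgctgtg
Orm3: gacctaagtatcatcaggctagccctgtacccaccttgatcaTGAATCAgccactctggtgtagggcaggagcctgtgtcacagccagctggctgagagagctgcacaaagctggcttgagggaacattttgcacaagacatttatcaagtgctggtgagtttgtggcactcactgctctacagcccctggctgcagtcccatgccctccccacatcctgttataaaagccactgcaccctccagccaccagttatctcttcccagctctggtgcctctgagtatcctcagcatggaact
Keg1: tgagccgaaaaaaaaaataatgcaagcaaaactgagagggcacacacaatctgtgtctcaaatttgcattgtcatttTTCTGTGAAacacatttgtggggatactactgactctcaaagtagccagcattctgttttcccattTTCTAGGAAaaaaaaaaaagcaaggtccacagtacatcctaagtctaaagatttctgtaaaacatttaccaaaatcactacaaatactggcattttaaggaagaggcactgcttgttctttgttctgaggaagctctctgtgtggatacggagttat
Sdr9c7: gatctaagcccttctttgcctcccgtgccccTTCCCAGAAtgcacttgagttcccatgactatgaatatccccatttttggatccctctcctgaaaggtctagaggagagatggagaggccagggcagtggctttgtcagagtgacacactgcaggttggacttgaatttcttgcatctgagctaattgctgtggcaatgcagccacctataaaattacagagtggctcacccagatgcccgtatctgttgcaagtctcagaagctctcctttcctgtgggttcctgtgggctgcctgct
Sprr1a, with matches starting at -146 and -116, read 8.27, 8.12 and 9.82 in the JNK1-/- ligated arrays against 5.14, 5.70 and 5.26 in the sham arrays. Keg1, with matches at -173 and -107, read 8.27, 7.94 and 8.46 against 11.60, 11.79 and 11.77. A match describes the letters of the window and does not show that a factor binds there.

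Among the 16 genes of bile acid synthesis, 6 fell and 2 rose in the JNK1-/- ligated liver, with a median log2 difference of -0.44 beside -0.03 over all genes. Cyp7b1, the oxysterol hydroxylase of the alternative pathway, read 7.78, 7.74 and 7.69 against 10.81, 11.71 and 11.63, a fall of 3.65. Scp2, a peroxisomal thiolase and sterol carrier, fell by 0.85, the racemase Amacr by 0.61, and Hsd3b7, which acts early on the sterol ring, by 0.98. The 2 that rose were Akr1d1 (0.72), the steroid 5-beta-reductase, and Acox2 (0.35), a peroxisomal oxidase. Cyp7a1, the rate-limiting enzyme of the classical pathway, read 11.70, 11.54 and 10.64 against 10.73, 7.89 and 10.70. Sham replicate 2 was far below the other sham arrays, the groups overlapped, and the difference of 1.52 did not pass (adjusted p = 0.44). Cyp8b1, the sterol 12-alpha-hydroxylase, read 8.65, 8.77 and 8.52 against 11.29, 11.02 and 11.003. Its groups did not overlap, yet the difference of -2.45 did not pass (SE 0.95, adjusted p = 0.10), since the spread was estimated over all 8 groups.

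Of the 8 measured uptake genes, 5 fell and 1 rose. The count of 6 was 4 with any 1 array left out, and 4 without replicate 3 of both groups. Beside Slco1a1, the organic anion transporter Slc22a7 read 6.01, 5.96 and 6.83 against 8.36, 8.18 and 8.61, and Fabp1, the cytosolic fatty acid binding protein of hepatocytes, read 10.44, 8.01 and 10.38 against 12.63, 12.52 and 12.69. Both groups were separate for each gene, with falls of 2.11 and 3.005. Slco1a4, a related carrier, rose by 1.31 (10.86, 10.90 and 10.44 against 9.56, 9.25 and 9.45). Slc10a1, the main sodium-dependent bile acid uptake carrier, fell by 0.30 (adjusted p = 0.040), a call lost under 10 of 18 other settings. Of 15 export genes, 7 rose and 1 fell, and 5 of these 8 were called without replicate 3 of both groups. Abcb1a, a multidrug pump, read 8.51, 8.42 and 7.92 against 5.35, 5.04 and 5.79, a rise of 2.89. Slc51b, shown above by its promoter, read 8.91, 8.95 and 8.67 against 5.53, 4.50 and 5.61, and Abcc4, a basolateral conjugate pump, read 7.63, 6.94 and 6.36 against 5.77, 5.33 and 5.64. The groups were separate for all 3 pumps. Abcg2 fell by 0.69, while Abcb11, the canalicular bile salt export pump, differed by -0.10 (adjusted p = 0.85).

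**Figure D2:**
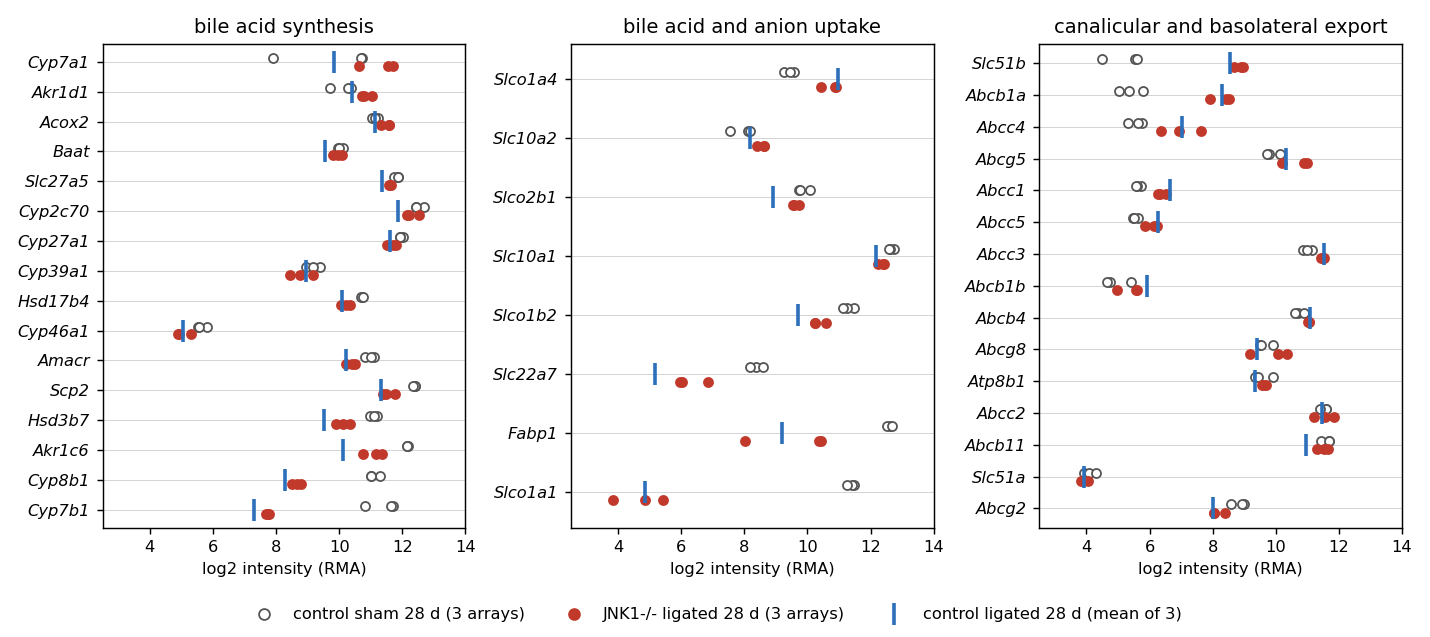
Log2 intensity (horizontal axis) of every measured gene of bile acid synthesis, of bile acid and anion uptake and of export, ordered by the difference; open circles are the 3 control sham arrays, red circles the 3 JNK1-/- ligated arrays at 28 d, and the blue bar is the mean of the 3 control ligated arrays. Cyp7b1, Slco1a1 and Slc51b are far apart between the groups, and Abcb11 overlaps.

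Genes that are higher in male than in female mouse liver fell as a group: 18 of 22 measured members fell and none rose, with a median of -2.30. The list shares Hsd3b5, Serpina4-ps1, Slco1a1, Elovl3, Cyp4a12a, Cyp7b1, Mup21 and Mup3 with the largest falls above, so it is the same observation under another name for those genes. Among 17 measured genes of the opposite bias, 7 rose and 1 fell, with a median of 1.14. This list too repeats genes given elsewhere, as it shares Sult1e1 with the largest rises above and Prom1 with the bile duct markers below. Nipal1, a magnesium transporter family member, read 9.18, 9.06 and 8.92 against 6.28, 5.86 and 6.29, and Fmo2, a flavin monooxygenase, read 9.25, 9.58 and 9.09 against 6.64, 6.86 and 6.55. Both were separate between the groups, with rises of 2.91 and 2.62. Hao1, which encodes glycolate oxidase, was the member that fell (-2.67). Both counts held within 1.5 times when any 1 array was left out.

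Of 18 genes of the growth hormone and STAT5 axis, through which pulses of growth hormone set sex-biased expression in rodent liver, 6 fell and none rose. Cish, a STAT5-induced feedback inhibitor, read 6.71, 7.15 and 6.57 against 7.79, 8.87 and 8.29, a fall of 1.51 without overlap. Against the sham arrays of 48 h in place of those of 28 d, the same knockout arrays were higher by 1.46, so the direction for Cish depends on which sham group is used. Onecut1, a liver transcription factor, fell by 2.13 (7.54, 7.65 and 7.43 against 9.20, 9.97 and 9.85), but differed by -0.24 from the 48 h sham arrays (adjusted p = 0.71). Igfals, the carrier subunit for circulating IGFs, fell by 1.29, and the receptor Ghr by 0.70. Igf1 differed by -0.11 and was not called. In the direct comparison of ligated livers at 28 d, Ghr was higher in JNK1-/- than in control liver by 0.61 (limma, adjusted p = 0.042). Ghr was not called when that comparison was fitted to its own 6 arrays.

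Hepatocyte identity genes moved less. Of 24 measured markers, 4 fell and none rose (median -0.07), led by the transcription factors Foxa1 (-1.01) and Foxa2 (-0.85). Cebpa fell by 0.47 and Ttr, the thyroxine carrier, by 0.25. None of the 4 was called against the 48 h sham arrays, from which Foxa1 differed by -0.21 (adjusted p = 0.36), Foxa2 by -0.28 (adjusted p = 0.16) and Cebpa by -0.02 (adjusted p = 0.93). The Cebpa call was lost under 8 of 18 other settings and that of Ttr under 7. The count was 2 without JNK1-/- replicate 2 or sham replicate 3. In bulk liver, fewer hepatocytes and less RNA per hepatocyte cannot be told apart. Of 20 fatty acid oxidation genes, 10 fell and 2 rose (median -0.40). The mitochondrial enzymes Decr1 (-0.88), Hadha (-0.42) and Hadhb (-0.43) fell, as did Acot1, an acyl-CoA thioesterase, by 1.61; the count of 12 was 7 without replicate 3 of both groups and 8 without JNK1-/- replicate 2 or without any 1 sham array. Of 28 genes of fatty acid and triglyceride synthesis, 6 fell and 3 rose. Mlxipl, the carbohydrate response factor, read 9.90, 9.71 and 9.74 against 10.83, 10.89 and 10.82, a fall of 1.06, whereas the lipid uptake receptor Cd36 read 11.07, 10.73 and 10.89 against 9.31, 9.15 and 8.88, a rise of 1.78. Pparg, a regulator of lipid storage, rose by 1.11. These genes had separate groups. Among 20 cholesterol synthesis genes, 1 rose, Srebf2 (0.57), a smaller share than over all genes (7.19%). Srebf2 was not called without JNK1-/- replicate 1 or 2 or sham replicate 2 or 3. Of 21 nuclear receptors and their targets, Sult1e1 and Fgfr4 (0.53), the hepatic FGF receptor, rose and Sult2a8 and Cyp2c29 (-1.11) fell. Of 21 glucose genes, Pkm rose (0.65) and Pygl (-0.73), Ppp1r3c (-2.05) and Gys2 (-0.54), which act in glycogen turnover, fell; Pkm lost its call under 11 and Gys2 under 8 of 18 other settings, and 1 to 2 of the 4 were called without JNK1-/- replicate 2 or 3 or sham replicate 1 or 2.

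Acute phase genes and metallothioneins rose in 15 of 26 measured cases, and 1 fell (median 0.53). Orm2 read 12.67, 12.35 and 12.78 against 9.04, 10.73 and 9.20, and Lrg1, a secreted leucine-rich glycoprotein, read 12.53, 12.59 and 12.71 against 11.55, 11.73 and 11.40. The groups were separate, with rises of 2.94 and 1.05. The metallothioneins Mt1 and Mt2, which bind zinc, rose by 2.92 and 2.64. Saa2, a serum amyloid, read 11.49, 11.78 and 12.55 against 8.89, 11.57 and 8.497, and sham replicate 2 lay within the knockout range (adjusted p = 0.11). The list count was 14 to 16 with any 1 array left out. The 48 h sham arrays averaged 0.50 to 1.01 above the 28 d sham mean on this list, and 11 of the 16 calls were kept against them. Orm3 was then higher by 2.28, Orm2 by 1.35 and Lrg1 by 0.45. Among 28 cytokines and chemokines, 7 rose, with no falls. The monocyte attractant Ccl2 read 7.94, 8.31 and 8.25 against 5.07, 5.12 and 5.58, a rise of 2.91. Cxcl14 rose by 3.11, Ccl6 by 2.29 and the alarmin Il33 by 1.19. The count of 7 was 4 without JNK1-/- replicate 1 or 2 or sham replicate 3.

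Markers of recruited and lipid-associated macrophages rose in 21 of 24 measured cases and none fell, with a median of 1.26. The tetraspanin Cd9 read 8.52, 8.52 and 8.81 against 7.06, 7.08 and 7.13, and the lectin Lgals3 read 7.78, 8.12 and 8.36 against 6.41, 6.57 and 6.43. Gpnmb, a glycoprotein of lipid-laden macrophages, read 6.29, 7.91 and 6.50 against 3.75, 3.52 and 3.92. These genes had separate groups. Lpl, the lipoprotein lipase, rose by 2.28, Cd63 by 2.07 and Cd68, a general macrophage marker, by 0.88. The 3 that were not called were Fabp5 (-0.90), Fcer1g (0.88) and Apoe (0.01). The count was 17 to 19 with any 1 array left out and 12 without replicate 3 of both groups. Against the 48 h sham arrays 19 of the 21 calls were kept, and Cd68 differed by 0.33 and was not called (limma, adjusted p = 0.22). Of 20 markers given to resident Kupffer cells, 9 rose and none fell (median 0.36), among them Slc40a1, the iron exporter, by 0.54, Il18bp by 0.79, Cd5l by 0.73 and the complement subunit C1qb by 0.68. Clec4f, the marker most restricted to Kupffer cells, read 9.58, 9.29 and 10.36 against 9.73, 10.03 and 9.78, overlapping, with a difference of -0.10 (adjusted p = 0.92). The Kupffer count of 9 was 4 without sham replicate 3, 6 without JNK1-/- replicate 3 and 1 without both, and 3 of the 9 calls were kept against the 48 h sham arrays. Of 14 neutrophil markers, 3 rose: Retnlg (1.84), Csf3r (1.09), the G-CSF receptor, and Mmp9 (1.35), a gelatinase. The count was 2 without sham replicate 3 or JNK1-/- replicate 3, and none of the 3 was called against the 48 h sham arrays (Retnlg 0.78, adjusted p = 0.22). Of 19 T and NK cell markers, Cd4 (-0.95) and Nkg7 (-1.20) fell and none rose, beside 5.64% and 7.19% of all genes. Of 13 B and plasma cell markers, Ms4a1 (-0.64) and Cd79b (-0.69) fell and Sdc1, which hepatocytes also express, rose (0.69); 1 to 2 of the 3 were called without sham replicate 1 or 3 or JNK1-/- replicate 1 or 2.

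Bile duct markers rose in 6 of 23 measured cases and none fell (median 0.64). Bicc1, an RNA-binding protein, read 7.38, 7.41 and 8.04 against 6.02, 5.92 and 6.02, a rise of 1.62, and the keratin Krt18, shared with hepatocytes, read 12.07, 12.22 and 12.28 against 10.82, 10.93 and 10.82, a rise of 1.33. Elf3, an epithelial transcription factor, rose by 2.02 and the tight junction gene Cldn4 by 1.16. Krt8 (1.08) and Prom1 (1.64) were the other members that rose. Krt7 (1.23, adjusted p = 0.14) and Sox9 (1.02, adjusted p = 0.070) did not pass, although their groups were separate. Krt19 and Epcam, which mark duct epithelium, overlapped between the groups. Krt19 read 6.23, 5.57 and 6.63 against 5.16, 5.0 and 6.64 (difference 0.54, adjusted p = 0.62), and Epcam 5.77, 5.03 and 6.16 against 5.001, 4.93 and 5.78 (0.42, adjusted p = 0.73). Sham replicate 3 held the highest sham value of both, and over the whole list it averaged 0.38 above the sham mean while the other sham arrays averaged -0.17 and -0.21. The JNK1-/- arrays averaged 0.70, 0.40 and 1.06 on that scale. The count of 6 was 3 without JNK1-/- replicate 3 or sham replicate 1, 4 without JNK1-/- replicate 1 or sham replicate 2, and 2 without replicate 3 of both groups. The part of duct content in the differences was not tested.

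**Figure D3:**
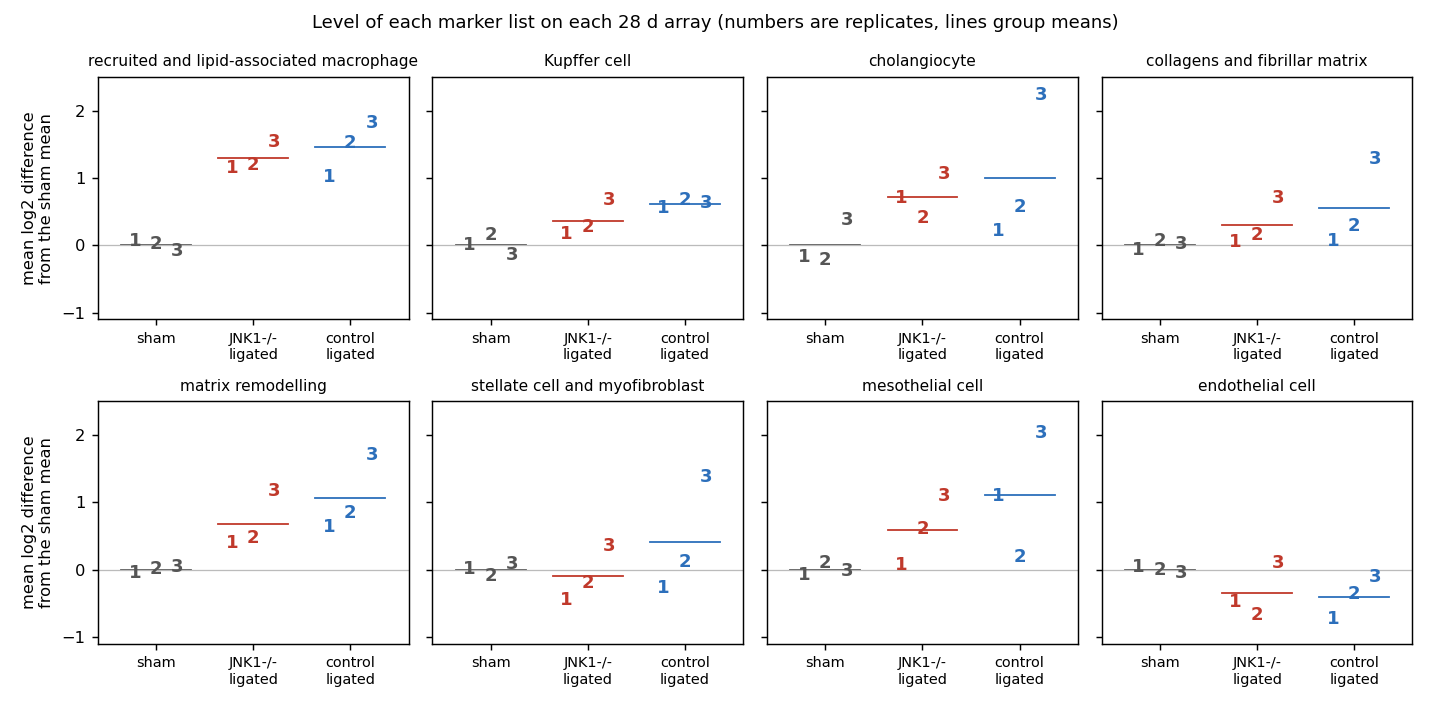
Mean level of each marker list on each array (vertical axis, log2 difference from the control sham 28 d mean), with numbers for the replicates and lines for group means in control sham, JNK1-/- ligated and control ligated livers at 28 d. Recruited macrophage markers are separate between sham and JNK1-/- ligated arrays. JNK1-/- replicate 3 stands highest of its group on every list drawn.

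Matrix genes were less uniform. Of 30 measured collagen and fibrillar matrix genes, 3 rose and 2 fell, beside 7.19% and 5.64% of all genes. These shares are near those of all genes, so nothing is read from the count. The median of 0.18 was 0.0048 after median centring and -0.02 without replicate 3 of both groups. Col1a1, the main fibrillar collagen chain of scar, read 7.21, 7.33 and 8.52 against 5.82, 6.22 and 6.29. Its groups were separate, with a rise of 1.58 ± 0.39 (adjusted p = 0.011), but it was not called under 3 of 18 other settings. Nid1, a basement membrane linker, rose by 2.33 and the laminin chain Lamc1 by 0.49 (a call lost under 6 of 18 other settings), while Col27a1 fell by 0.63. Col3a1 (6.68, 6.65 and 7.92 against 6.26, 6.22 and 6.22) and Col1a2 (0.99), partners of Col1a1 in scar matrix, did not pass (adjusted p = 0.17 and 0.096). The count of 5 was 3 without JNK1-/- replicate 2 or 3 or sham replicate 1 or 3, and 1 without replicate 3 of both groups. JNK1-/- replicate 3 averaged 0.71 over the list and the other knockout arrays 0.05 and 0.16.

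Matrix remodelling genes rose in 9 of 26 cases and 1 fell (median 0.52, and 0.21 without replicate 3 of both groups). Timp1, an inhibitor of matrix metalloproteinases, read 6.60, 6.97 and 8.63 against 4.92, 4.49 and 4.41, a rise of 2.79. The macrophage elastase Mmp12 read 6.84, 5.85 and 7.81 against 4.30, 4.19 and 4.32, a rise of 2.56. Both were separate, with JNK1-/- replicate 3 highest. Mmp14, a membrane-bound collagenase, rose by 0.98. The count of 10 was 6 without replicate 3 of both groups. Of 22 TGF-beta response and matricellular genes, 5 rose and none fell. Thbs1, an activator of latent TGF-beta, read 7.34, 8.34 and 8.55 against 5.51, 4.77 and 5.95, a rise of 2.66, and Bmper read 7.68, 8.07 and 7.08 against 4.11, 4.11 and 4.09. Ccn2, a matricellular growth factor modulator, rose by 1.27 and Tgfb2, a ligand, by 1.18. The count of 5 was 3 without JNK1-/- replicate 2 or 3, and 2 without replicate 3 of both groups.

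Of 25 stellate cell and myofibroblast markers, 2 rose (Vim by 0.99 and S100a6 by 1.02) and 2 fell (Ecm1 by 1.37 and Colec11 by 0.83), beside 7.19% and 5.64% of all genes, and the median was -0.05. These shares are near those of all genes, so nothing is read from the count. S100a6 lost its call under 6 and Colec11 under 7 of 18 other settings. Acta2, the smooth muscle actin of myofibroblasts, read 7.21, 7.12 and 8.67 against 7.21, 6.36 and 8.13, and the ranges overlapped (difference 0.43, adjusted p = 0.75). The count of 4 was 1 to 2 without JNK1-/- replicate 3 or sham replicate 1 or 2. Of 24 endothelial markers, 5 fell and none rose (median -0.34). Flt1, a VEGF receptor, read 6.48, 6.69 and 6.34 against 7.81, 7.73 and 7.80, a fall of 1.28, and it was also lower in JNK1-/- than in control ligated liver. Ehd3 (-1.13) and Oit3 (-0.99), sinusoidal markers, and Wnt2 (-0.78), a sinusoidal ligand, fell as well, although Wnt2 lost its call under 9 and Oit3 under 7 of 18 other settings. The endothelial count was 2 without any 1 sham array, 2 or 3 without JNK1-/- replicate 2 or 1, and 8 without JNK1-/- replicate 3. No mesothelial marker of 11 was called. Alas2, the erythroid heme synthesis enzyme, was the 1 of 6 red cell markers that fell (-1.72). Fabp2 (-1.71) and Cela1 (-0.58) were the 2 of 15 pancreas, gut and muscle genes that fell, 1 of them called without JNK1-/- replicate 3. With 5.64% of all genes lower, nothing is read from counts this small.

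**Figure D4:**
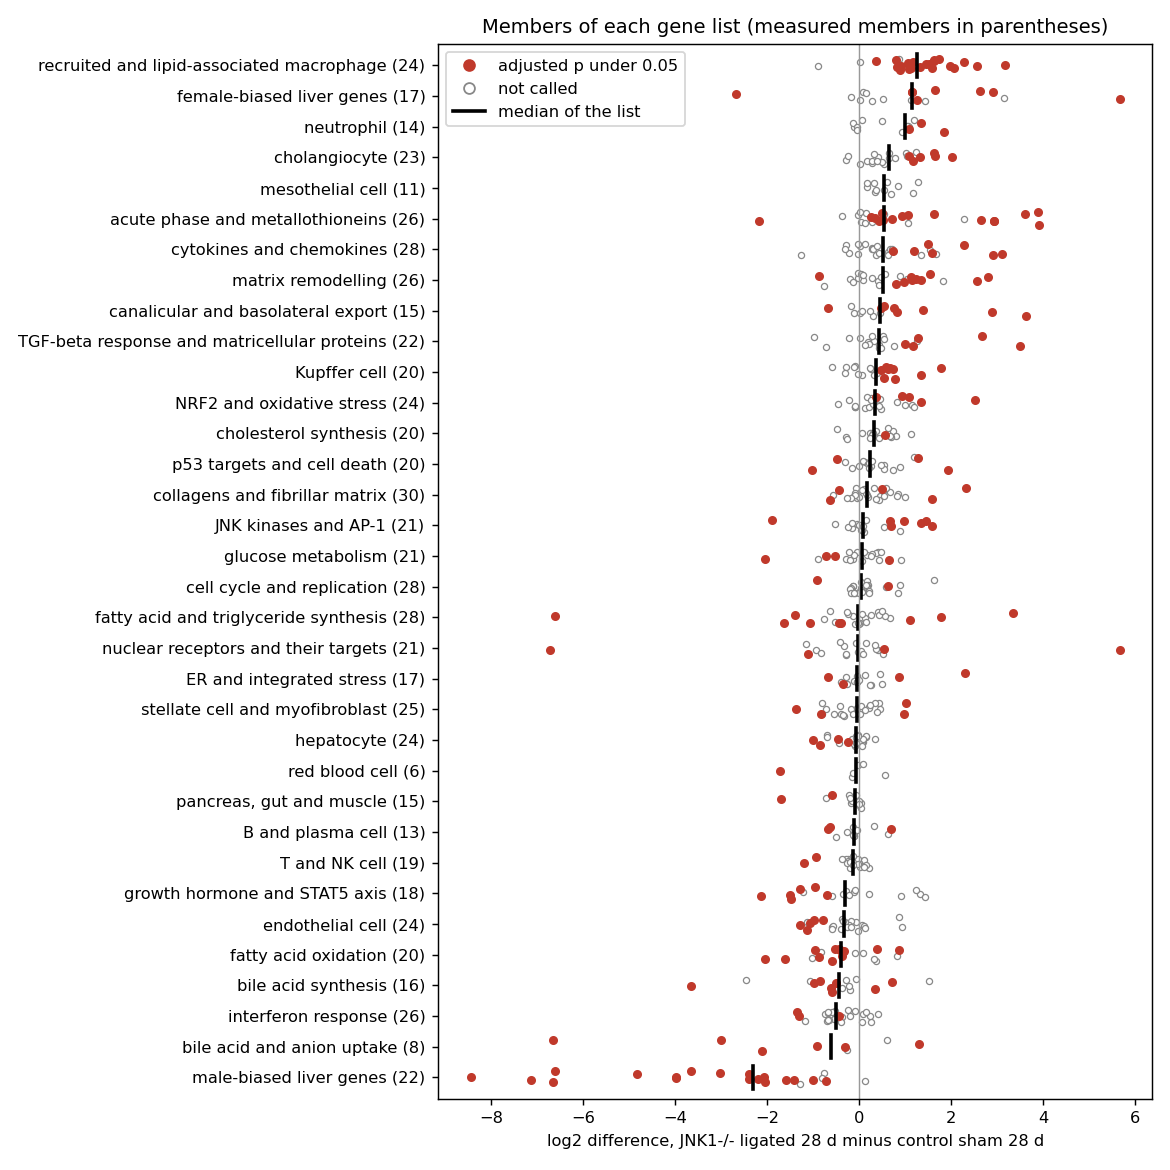
Log2 difference of each measured member (points) of the 34 gene lists, JNK1-/- ligated minus control sham at 28 d, ordered by the list median (black bar); filled red points passed at an adjusted p under 0.05 and open points did not. Male-biased liver genes lie farthest left, with a median of -2.30, and recruited macrophage markers farthest right, with a median of 1.26.

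On the NRF2 and oxidative stress list, 5 of 24 members rose, with no falls, led by the quinone reductase Nqo1 (8.57, 8.23 and 7.38 against 5.59, 5.27 and 5.74, a rise of 2.53), with Hmox1, the heme oxygenase, at 1.34, Pgd at 0.93 and Gclm, of glutathione synthesis, at 0.37. The count was 2 or 3 without JNK1-/- replicate 2 or 1 or without any 1 sham array, and 1 without replicate 3 of both groups. Against the 48 h sham arrays 4 of the 5 calls were kept, and Pgd differed by 0.58 and was not called (limma, adjusted p = 0.12). Of 17 ER and integrated stress genes, Asns, the asparagine synthetase, rose by 2.30 and Ppp1r15a, a phosphatase subunit of the stress response, by 0.86, while Ern1 (-0.68) and Creb3l3 (-0.36) fell. Ppp1r15a lost its call under 12 of 18 other settings, and Asns differed by 0.99 from the 48 h sham arrays (adjusted p = 0.097); 2 of the 4 were called without JNK1-/- replicate 1 or sham replicate 2. Of 20 p53 and cell death genes, the death receptor Tnfrsf10b (1.94) and Btg2 (1.28) rose and Bik (-1.03) and Bid (-0.48) fell; Btg2 and Bid each lost the call under 9 of 18 other settings, and 2 of the 4 were called without any 1 JNK1-/- array or without sham replicate 1 or 3. Of 28 cell cycle genes, Cdt1 rose (0.62) and Rrm2 fell (-0.92), smaller shares than over all genes (7.19% and 5.64%), and neither was called without JNK1-/- replicate 1 or sham replicate 2, while 1 of them was without JNK1-/- replicate 2 or sham replicate 1 or 3. Of 26 interferon response genes, Rsad2 (-1.30), Ifit3 (-1.36) and Isg15 (-0.45) fell and none rose (median -0.51); Isg15 lost its call under 9 of 18 other settings. That count was 1 without JNK1-/- replicate 2 or sham replicate 2 or 3, 2 without JNK1-/- replicate 1 or sham replicate 1, and 8 without JNK1-/- replicate 3.

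Within the JNK and AP-1 list, 6 of 21 genes rose, and Mapk8 was the 1 that fell. Fosl2 read 7.48, 7.98 and 7.92 against 6.34, 6.47 and 6.55, a rise of 1.34, and Fos read 5.91, 5.61 and 6.42 against 3.78, 4.68 and 5.11, a rise of 1.46. Both encode AP-1 subunits, and their groups were separate. Jun, the substrate that gave the kinase its name, rose by 0.98 and Atf3 by 1.59. Map3k1, an upstream kinase of the pathway, rose by 0.69. The list median of 0.09 was -0.09 after median centring. The count of 7 was 4 without JNK1-/- replicate 2 or 3 and 3 without sham replicate 1. Against the 48 h sham arrays 5 of the 7 calls were kept. Fosl2 was then higher by 0.73 and not called (limma, adjusted p = 0.067).

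JNK1-/- and control livers, which differ in genotype and in line of origin, were also compared with both ligated. At 28 d, 118 genes (0.627% of those tested) differed between JNK1-/- and control, and at 48 h, on arrays that the sham comparison does not use, 433 (2.3%). Both comparisons called 41 genes, all in the same direction. Of these, 34 were called against sham, beside 12.8% of all genes, and 33 of them in the direction of the genotype difference. The exception was Lratd2. The 28 d genotype comparison and the sham comparison share the JNK1-/- arrays, so this overlap is partly fixed by the choice of genes. No result is read from it. After Slc6a16 the largest rises against sham among the 41 genes were Prelid2, Atp10d, Tead2, Mid1 and Cfap20dc. Tead2, a partner of YAP, read 7.38, 7.60 and 7.65 against 4.96, 4.77 and 4.88, and Mid1, a ubiquitin ligase, read 10.07, 10.43 and 10.12 against 7.98, 7.64 and 7.69. The groups were separate for both, and the genotype differences of Tead2 were 2.08 at 28 d and 2.32 at 48 h. The largest falls were Gas2, Mapk8, Flt1, Unc5a, Mical3 and Igsf23. Gas2 read 6.38, 6.34 and 6.38 against 8.92, 8.59 and 8.89, with genotype differences of -1.72 and -1.94. Of the 41 genes, 9 lay on chromosome 14, which holds Mapk8 and 3.5% of the genes measured, 9 on chromosome 7 (8.75%), where Slc6a16, Tead2, Cd37 and Slc6a21 are, and 6 each on chromosomes 3 (4.71%) and 6 (5.57%). The separate origin of the JNK1-/- mice and the loss of Jnk1 cannot be told apart for these genes. When the 28 d genotype comparison was fitted to its own 6 arrays, Slc6a16 was the 1 gene called. With the shared fit, 1 array left out gave 56 to 413 genes, the lowest without JNK1-/- replicate 1 and the highest without control ligated replicate 2, and 78 without JNK1-/- replicate 2. At 48 h the count was 161 and 189 without control ligated replicate 2 and 1, and 234 without JNK1-/- replicate 1.

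**Figure D5:**
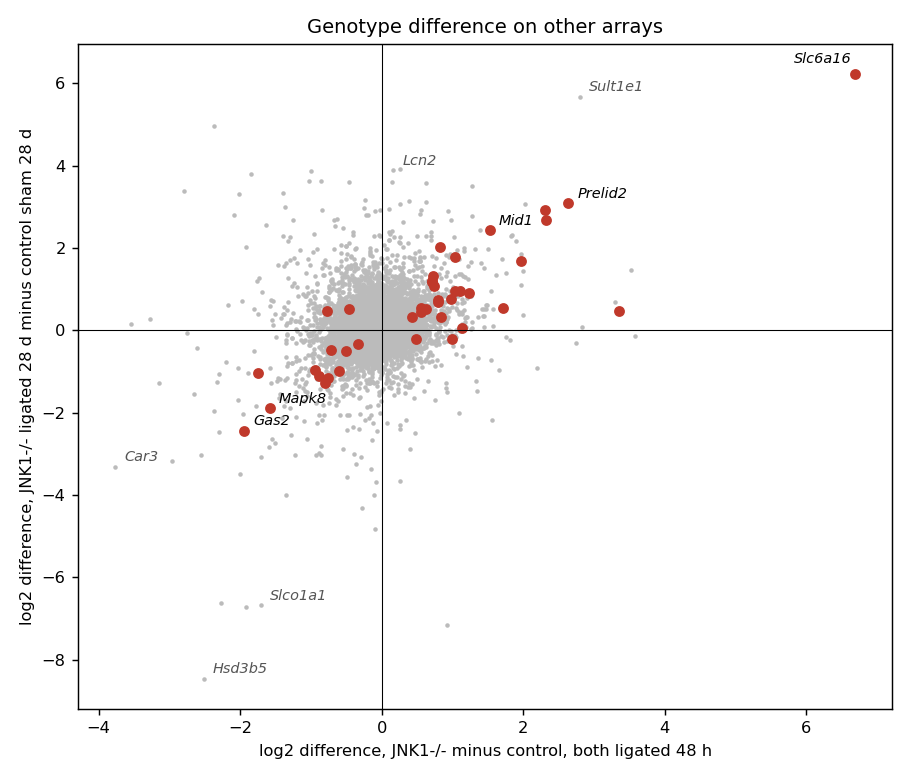
Log2 difference between JNK1-/- ligated and control sham livers at 28 d (vertical axis) against the log2 difference between JNK1-/- and control livers both ligated for 48 h (horizontal axis), which share no array; each point is a gene and red points are the 41 genes called in both genotype comparisons. Slc6a16 is at 6.22 and 6.70, while Hsd3b5 is at -8.46 and -2.52.

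Control livers ligated for 28 d, compared with the same sham arrays, gave 2199 rises (11.7%) and 2161 falls (11.5%). Because the sham arrays are shared, the values are set side by side without a test of likeness. Recruited macrophage markers rose in 21 of 24 in JNK1-/- liver (median 1.26) and in 20 of 24 in control liver (1.47). Male-biased genes fell in 18 of 22 (-2.30) and 21 of 22 (-2.79). Matrix remodelling genes rose in 9 (0.52) and 17 (1.05) of 26, collagen genes in 3 (0.18) and 9 (0.48) of 30, and mesothelial markers in none (0.54) and 5 (0.87) of 11. Interferon genes fell in 3 (-0.51) and 13 (-0.74) of 26. Counts were equal for rises of acute phase genes (15 of 26) and export genes (7 of 15) and for falls of fatty acid oxidation genes (10 of 20). Control ligated replicates 1, 2 and 3 averaged 0.06, 0.29 and 1.29 above sham on the collagen list. They averaged 0.64, 0.85 and 1.70 on matrix remodelling and 1.10, 0.19 and 2.04 on the mesothelial list, so replicate 3 carries much of these control values. The difference itself was tested between the ligated groups. There no member of the lists set side by side was called except Ctss, a macrophage protease, lower in JNK1-/- liver by 0.55. Cd163, a scavenger receptor of the Kupffer list, was lower by 1.44, and Cebpa higher by 0.60 (adjusted p = 0.039). Ctss, Cd163 and Cebpa were not called when this comparison was fitted to its own 6 arrays, where Slc6a16 alone passed. Ctss and Cd163 were named after their values were seen. Control ligated arrays spread more widely (median SD 0.187) than JNK1-/- ligated (0.127) or sham arrays (0.115). The counts set side by side rest on the fit shared by all groups. Without the control ligated 28 d arrays in it, the JNK1-/- comparison with sham called 3143 genes in place of 2416. Fitted to its own 6 arrays, the control comparison with sham called 1765 in place of 4360.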

How the data were processed

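RNA of 24 liver samples in 8 groups of 3 was profiled on whole-transcript arrays, and 6 arrays form the comparison reported. The deposited values are log2 intensities made by the authors with RMA, per the submitters' processing notes; for the version and the array's genome build, nothing is given in the sources used here, and raw scans and detection calls were not used. Of 35556 probe sets, 21218 have 1 gene symbol in the platform annotation, 1881 several and 12457 none; 21185 were linked to current symbols by gene number. The brightest probe set stood for each of 18820 symbols.

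A mean for each of 8 groups was fitted with limma 3.58.1 (R 4.3.3) to all 24 arrays, and p-values were adjusted by Benjamini-Hochberg over all symbols. The number of arrays limits the precision: the median standard error was 0.129. The code was tested on simulated data. Named genes were the 14 largest differences per direction among called genes with separate groups, up to 4 called members per list with the smallest p, fixed defining members, and up to 6 per direction called in both genotype comparisons; other list members named (such as Krt7, Saa2, Col3a1, Jun or Gpnmb) were picked after their values were seen. The 34 lists (692 measured members) and the comparison were chosen with earlier results of these data known. Deviations of same-numbered arrays correlated at 0.16, 0.07 and 0.03 in the main comparison and at 0.18, 0.08 and 0.50 between the ligated groups at 28 d; no comparison had every pair over 0.1, so numbers were not used as pairs. No 2 arrays were identical. Alternatives covered normalization, filtering, probe sets, the fitted arrays, the replicate block and leaving out arrays. Promoters came from RefSeq, GRCm38.p6.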

Additional observations from a re-analysis of the deposited data

Results flagged for a closer look

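The JNK1-/- minus control difference among ligated livers was compared between 28 d and 48 h by an interaction term in limma, and 140 of 18820 genes passed at an adjusted p under 0.05; 9 of the named genes were among them. Car3 differed most: JNK1-/- liver was higher by 1.95 at 28 d and lower by 3.76 at 48 h, a change of 5.71 (adjusted p = 0.013). Fmo2 changed by -2.58 and Slco1a4 by -1.29, both higher in JNK1-/- liver at 48 h (2.35 and 1.04) and near 0 at 28 d (-0.23 and -0.25). Slc22a7 changed by 2.32, Lpl by 1.57, Pygl by 1.29 and Mlxipl by 0.82, all lower in JNK1-/- liver at 48 h. Ccn2 changed by -1.96, from 0.72 at 48 h to -1.24 at 28 d. Cfap20dc changed by 1.37, higher in JNK1-/- liver at both times (0.83 and 2.20). Of these 9 genes, Cfap20dc alone was called in the JNK1-/- minus control comparison at 28 d, so the other 28 d values did not pass by themselves. Ccn2 and Slc22a7 were called at neither time. The interaction was not refitted with arrays left out.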

How the results depend on the processing

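Counts of called genes in the comparison with sham were 1612 to 1977 with 1 of the 6 arrays left out, 1359 without replicate 3 of both groups (an alternative chosen after seeing the list levels), and 4537 with arrays centred on their medians. The replicate block gave 2502 genes with all 24 arrays and 2280 with the 6 arrays alone. Without the control ligated 28 d arrays in the fit, 3143 genes were called. Against the 48 h sham arrays 3199 were called, and 1833 of the 2416 main calls were kept in the same direction. Control ligated against sham gave 6907 after median centring, 1765 when fitted to its own 6 arrays and 1071 with the block in those arrays. The genotype comparison at 28 d gave 179 after median centring, 1 in its own 6 arrays, 1 there with the block, and 56 to 413 with 1 array left out. At 48 h it gave 121 in its own 6 arrays, 17 there with the block, and 161 to 413 with 1 array left out. Cish was 1.46 higher against the 48 h sham arrays and lower against those of 28 d. The cause of these shifts was not tested, beyond the fewer arrays that the smaller fits hold. Over up to 18 settings each, the named genes kept their side of the threshold in 2788 cases, lost the call in 275 and gained it in 6. In 1 case a called gene turned, and these numbers count also the genotype comparisons. Changes of sign in genes not called were not counted as turns. Mapk9, for example, ran from -0.12 to 0.13. Without detection calls, low values could not be set against background.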
